A study of Sus scrofa with 12 samples.

Results

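The genes described here encode the subunits of the oxidative phosphorylation complexes of the mitochondrion, with a few genes whose symbols look alike. The rule uses gene symbols alone, but the genes were chosen with earlier results of these data known. A gene was taken when its symbol started with NDUFA, NDUFB, NDUFC, NDUFS, NDUFV, UQCR, COX4 to COX8 or ATP5, or was SDHA, SDHB, SDHC or SDHD. Of 31694 gene identifiers in the mRNA files, 67 met this rule, and they are called the OXPHOS genes below. Liver was taken from uncastrated male pigs at 70 days of age, 3 of the Jinhua (JH) breed and 3 of the Landrace (LD) breed. Each pig gave 1 mRNA library, JH1 to JH3 and LD1 to LD3, and LD served as the control group. Jinhua pigs come from China and grow fat readily, whereas Landrace is a European breed selected for lean meat. The breeds differ in their whole genetic background, so a difference between the groups cannot be assigned to a single allele. The labels name separate pigs by number only, and nothing in the sources used here gives their litters or sires.

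Oxidative phosphorylation is the last stage of energy release from nutrients. Complex I takes electrons from NADH and complex II takes them from succinate, complex III passes them to cytochrome c, and complex IV hands them to oxygen. Complexes I, III and IV pump protons across the inner membrane, and complex V, the ATP synthase, lets the protons flow back and makes ATP. Liver cells are rich in mitochondria and use this ATP for the synthesis of glucose, urea and plasma proteins. Most subunits are encoded in the nucleus and some in the mitochondrial genome. The subunit genes of the mitochondrial genome had no identifier under the symbols searched and were not analysed here.

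The OXPHOS genes were divided by complex. Complex I had 33 genes, complex II had 4, complex III had 2, complex IV had 9 and complex V had 12. NDUFA4 was placed with complex IV, where its protein is now assigned. The other 7 genes match the rule but do not encode subunits. They are NDUFAF3 to NDUFAF7, which help to assemble complex I, the paralog NDUFA4L2 and the coupling factor gene ATP5S. Of the 67 genes, 62 reached 0.5 RPKM in 3 or more libraries and were tested. The other 5, COX8H, NDUFA4L2, NDUFB10, NDUFB4 and SDHA, were listed at 0 in every library. SDHA encodes the catalytic flavoprotein of complex II, which every respiring cell uses. In all, 12080 identifiers were listed at 0 in every library, among them APOB, a gene that hepatocytes express strongly, so a listed 0 was not read as absent expression. Subunits such as COX4I1, COX5A, UQCRC1 and UQCRC2 do not appear under these symbols and were not analysed here.

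Values are RPKM, the reads of a gene scaled to its length and to the counted reads of the library. The counted reads recovered from the RPKM values ranged from 5744908 in JH1 to 7914514 in LD3. JH3 and LD3 stood apart from the other libraries. Their median log2 level over the 12993 tested genes was 2.10 in both, against 2.35 to 2.42 in the others. The ribosomal RNA gene RN18S had 62257 RPKM in JH3 and 20160 RPKM in LD3, against 1570 to 7309 RPKM elsewhere. The tissue label was checked with hepatocyte markers. ALB, the albumin gene, had 27533 to 33599 RPKM in JH and 37742 to 53893 RPKM in LD. Markers of other liver cells moved with the breed. The summed RPKM of 5 stellate cell or fibroblast markers was 75.5 to 97.7 in JH and 184 to 379 in LD, and all 5 had a lower mean log2 level in JH. All 4 endothelial markers also had a lower mean log2 level in JH, and their sum was 27.6 to 39.0 RPKM in JH and 53.7 to 61.6 RPKM in LD. The 3 bile duct markers were summed to 6.99 to 15.5 RPKM in JH and 14.2 to 34.5 RPKM in LD, and the 2 red blood cell markers to 90.1 to 122 RPKM in JH and 212 to 393 RPKM in LD. The 9 hepatocyte markers, with APOB listed at 0, were summed to 61600 to 74400 RPKM in JH and 76900 to 90900 RPKM in LD. They did not all move alike, since APOA1, an apolipoprotein gene, had 10301 to 22277 RPKM in JH and 7399 to 10116 RPKM in LD, with all JH values above all LD values. For 4 lymphocyte markers the sums were 11.2 to 44.6 RPKM in JH, where JH2 was the highest, and 15.2 to 16.9 RPKM in LD. The 3 macrophage markers, with CD163 listed at 0, gave 10.3 to 26.1 RPKM in JH and 9.43 to 15.0 RPKM in LD. Muscle markers summed to no more than 0.707 RPKM in any library, with CKM, MB and MYH7 listed at 0, and fat cell markers to no more than 2.33 RPKM, with LEP listed at 0. The part of these cell types in the values below was not tested. In bulk tissue, fewer cells of a type and less RNA per cell cannot be told apart.

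None of the 62 tested OXPHOS genes was called different between the breeds. The test was limma on log2(RPKM + 0.1) across all tested genes. A call needed a p below 0.05 after Benjamini-Hochberg adjustment and a log2 fold change beyond 1 in either direction. Errors given as SE are standard errors of the log2 fold change. At this threshold 310 of the 12993 tested genes (2.39%) were called, and the count was the same without the fold change limit. The lowest adjusted p among the OXPHOS genes was 0.114, for NDUFAF6. The values still leaned one way. The log2 fold change, given as JH over LD throughout, was above 0 in 58 of 62 genes, against 52.9% of all tested genes. It was above 0 in 55 genes under quantile normalization and in 54 after scaling to a common sum. The share of all tested genes above 0 under these scalings is not given here. The common sum is that of the RPKM of all tested genes but the 50 with the highest mean. The median log2 fold change was 0.39, against 0.04 for all tested genes. It was 0.23 against 0.02 under quantile normalization, 0.25 against -0.10 with the common sum, and 0.63 against 0.15 without JH3. Without adjustment, limma gave p below 0.05 for 15 OXPHOS genes with the higher mean in JH and for none with the higher mean in LD. This is 24.2% of the OXPHOS genes, against 17.9% of all tested genes in either direction, 8.35% with the higher mean in JH and 9.51% with the higher mean in LD. The count of 15 depended on single libraries. It was 8 without JH1 or without JH2, 36 without JH3, 9 without LD2 and 7 without LD3, and the corresponding shares of all tested genes with the higher mean in JH were 5.49%, 5.42%, 13.4%, 7.67% and 5.37%. The half-width of the 95% interval of the log2 fold change had a median of 0.64. The interval included 0 in 47 genes, reached above 1 in 33 and reached below -1 in none. Thus a doubling in JH was within the interval of 33 genes, and a halving was within that of no gene.

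**Figure D1:**
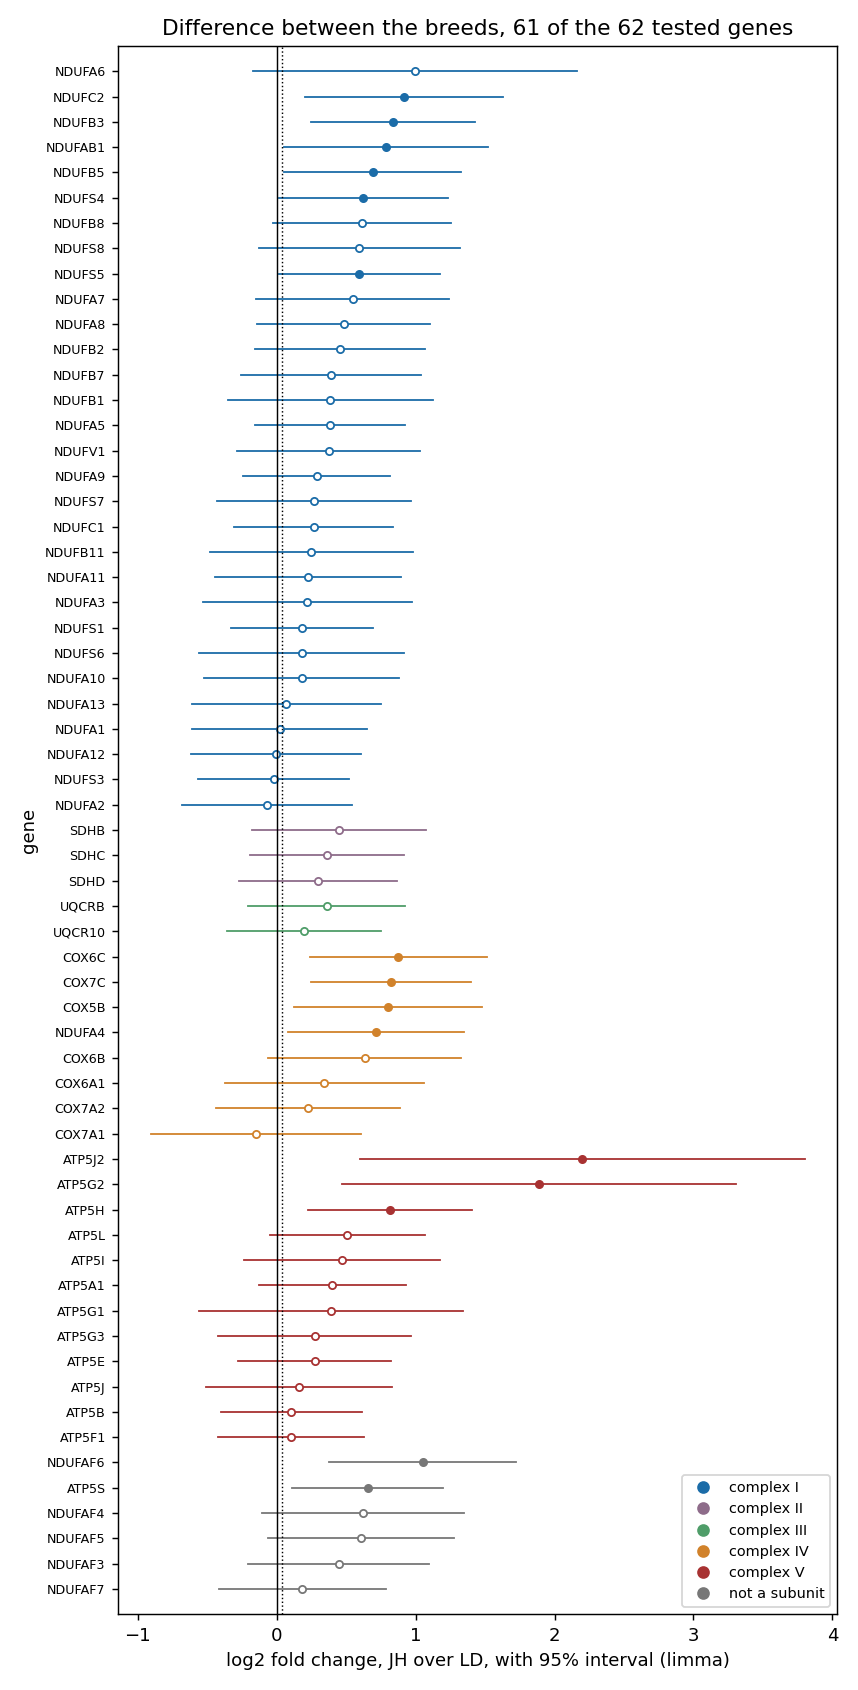
Log2 fold change of JH over LD (x axis) for 61 of the 62 tested OXPHOS genes (y axis), grouped by complex, as point and 95% interval from limma with 3 pigs per breed. Filled points have an unadjusted p below 0.05, the solid line marks 0 and the dotted line marks the median of all tested genes, 0.04. Most points lie to the right of both lines, and 46 of the intervals drawn include 0.

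The JH pigs were not alike. In the RPKM as deposited, JH1 and JH2 had the high values, and JH3 was near the LD pigs. The value of JH3 was the lowest of the JH pigs in 57 of 62 genes. JH1 exceeded the LD mean in 61 genes, JH2 in 62 and JH3 in 29. In JH3, 15 genes were above all LD values, 29 were within the LD range and 18 were below all LD values. These counts for JH3 were not set against the same shares of all tested genes. The median log2 level of all tested genes was also lower in JH3 (2.10) than in JH1 (2.36) and JH2 (2.42). JH1 and JH2 were both above all LD values in 53 genes (85.5%), against 26.8% of all tested genes. The mean log2 level over the 62 genes was 6.41, 6.35 and 5.77 in JH1 to JH3 and 5.80, 5.75 and 5.57 in LD1 to LD3. JH3 thus fell between LD1 and LD2 on this measure. When the median level of all tested genes of the same library was subtracted, the values were 4.05, 3.93 and 3.67 in JH1 to JH3 and 3.46, 3.36 and 3.47 in LD1 to LD3. On this measure the breeds did not overlap. The 62 genes took up 0.776% of the counted reads in JH1 and 0.709% in JH2. In JH3 the share was 0.512%, and in LD1 to LD3 it was 0.528%, 0.517% and 0.486%. The spread over pigs of the mean log2 level was an SD of 0.35 in JH and 0.12 in LD (n = 3 each). JH3 also had the highest RN18S level, whose part in its lower values was not tested. Without JH3 and LD3, 2 pigs were compared with 2, a fit added after the values were seen. In it the median log2 fold change of the OXPHOS genes was 0.56, against 0.07 for all tested genes. Again none was called, with 0.118 as their lowest limma adjusted p. Of all tested genes, 0.822% had an adjusted p below 0.05 in this fit.

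**Figure D2:**
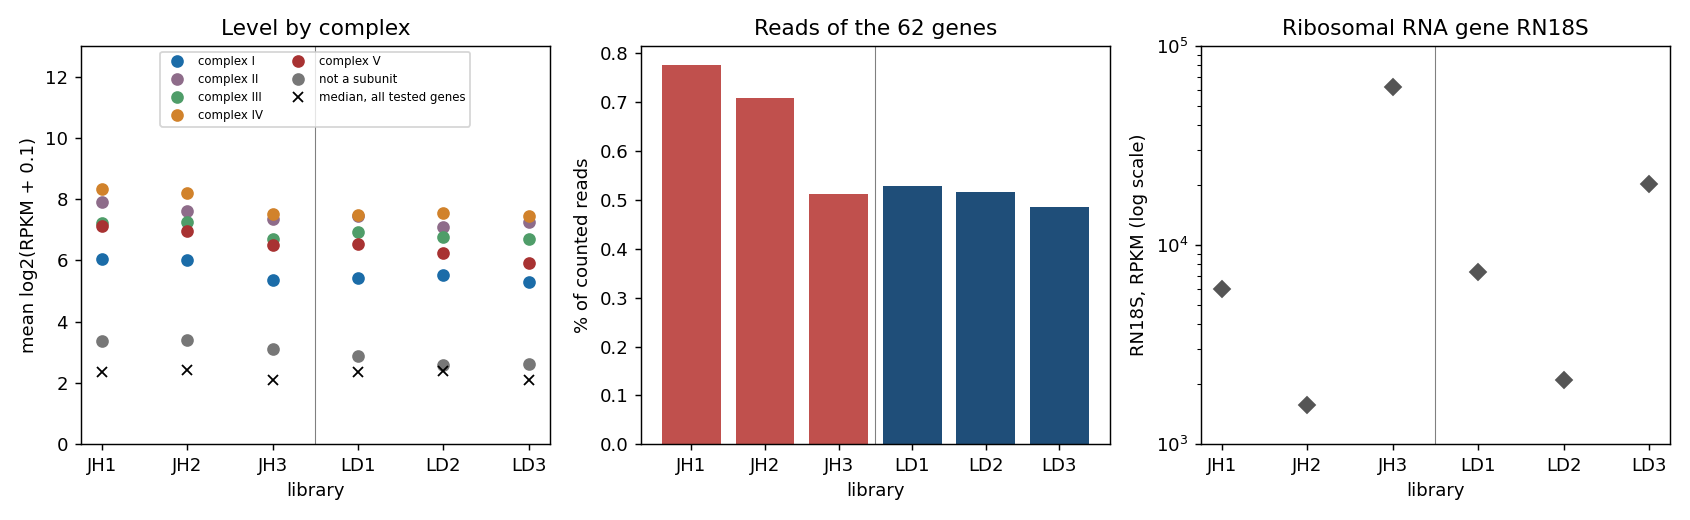
Left, mean log2(RPKM + 0.1) of the tested genes of each complex (coloured points) and the median of all tested genes (crosses) by library. Middle, the share of counted reads taken by the 62 genes, highest in JH1 (0.776%) and JH2 (0.709%) and between 0.486% and 0.528% in the other 4 libraries. Right, RN18S in RPKM on a log scale, highest in JH3.

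In 14 OXPHOS genes all 3 JH values were above all 3 LD values (22.6%), against 10.8% of all tested genes. In none were all JH values below all LD values, against 12.5% of all tested genes. The 14 were NDUFB3, NDUFC2 and NDUFS5 of complex I, SDHC of complex II, COX5B, COX6C, COX7C and NDUFA4 of complex IV, ATP5A1, ATP5H and ATP5J2 of complex V, and ATP5S, NDUFAF5 and NDUFAF6, which are not subunits. The count was 53 (85.5%, against 26.8% of all tested genes) without JH3 and 25 (40.3%, against 17.9% of all tested genes) without LD1. It was also higher under other scalings, with 27 genes (43.5%, against 14.4% of all tested genes) after each library was shifted to a common median, 22 (35.5%, against 13.2%) under quantile normalization and 22 (35.5%, against 9.87%) with the common sum. Under the last 2 scalings 1 gene, NDUFS3, had all JH values below all LD values.

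**Figure D3:**
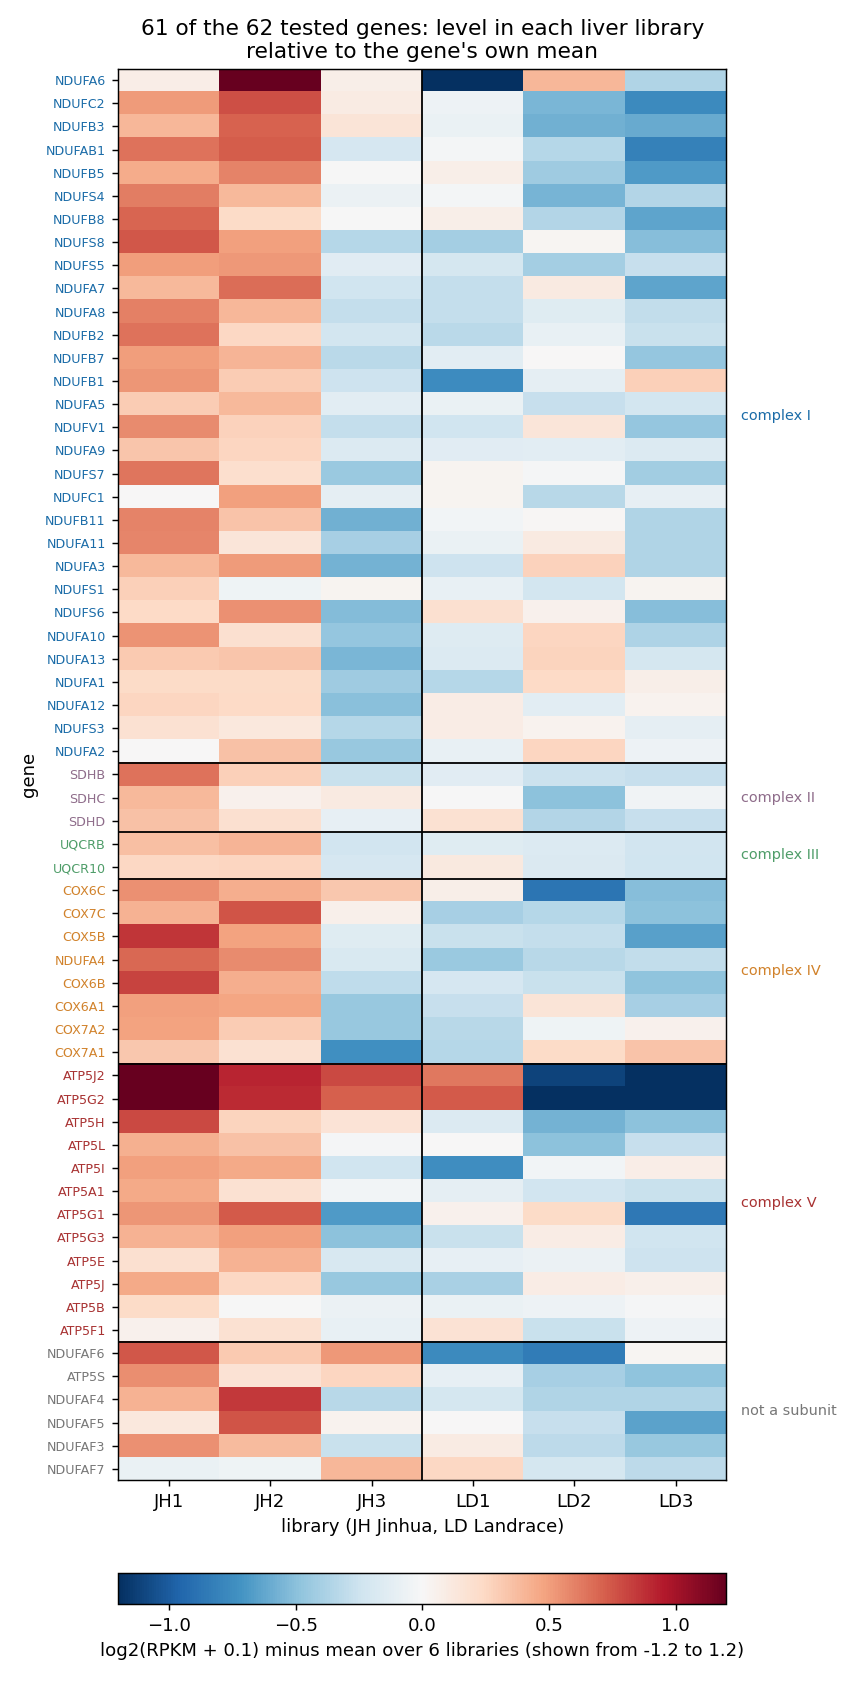
Level of 61 of the 62 tested OXPHOS genes (rows) in each library (columns), as log2(RPKM + 0.1) minus the mean of the gene over the 6 libraries, with red above and blue below that mean. Rows are grouped by complex and ordered by log2 fold change. JH1 and JH2 are red in most rows, whereas JH3 is mixed and is the lowest JH library in 56 rows.

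Complex I is the largest complex, with an NADH-oxidizing tip (N module), a ubiquinone-binding part (Q module) and a membrane arm. Of its 31 tested genes, 28 had a log2 fold change above 0 and 6 had an unadjusted p below 0.05 (19.4%), all with the higher mean in JH, against 8.35% of all tested genes. The median was 0.37, but it was 0.22 without JH1, 0.60 without JH3 and 0.18 under quantile normalization. With the common sum it was 0.23. The breeds did not overlap in 3 genes (9.68%), close to the 10.8% of all tested genes. JH1 and JH2 were both above all LD values in 25 genes, against 26.8% of all tested genes. JH3 was the lowest JH value in 30, a count not set against all tested genes.

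The core subunits carry the flavin and the iron-sulfur clusters or bind ubiquinone. Of the 6 under the rule, 5 had a log2 fold change above 0 and none had an unadjusted p below 0.05. Their median was 0.28. The level of NDUFV1, which binds NADH and the flavin, was 97.2, 79.3 and 53.7 RPKM in JH1 to JH3 and 55.4, 72.2 and 47.6 RPKM in LD1 to LD3. The breeds overlapped, and the log2 fold change was 0.37 (SE 0.29). NDUFS8, an iron-sulfur subunit, had 74.4, 62.4 and 34.9 RPKM in JH and 33.3, 45.1 and 31.1 RPKM in LD. Here JH3 lay inside the LD range. NDUFS3 had 60.9 ± 11.5 RPKM in JH and 61.0 ± 4.39 RPKM in LD (SD, n = 3 each), so the breed means were nearly equal. NDUFS1 and NDUFS7 had log2 fold changes of 0.18 and 0.27. The ratio of NDUFS1 to NDUFV1 was 0.677 ± 0.179 in JH and 0.778 ± 0.223 in LD (SD, n = 3 each), with overlapping breeds. The 8 genes of the N module had a median of 0.28, and the 5 genes of the Q module a median of 0.29.

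The lowest p values of complex I came from accessory subunits, mostly of the membrane arm. NDUFB3 had 43.0, 53.6 and 36.3 RPKM in JH and 31.0, 21.8 and 21.5 RPKM in LD. All JH pigs were above all LD pigs, and the log2 fold change was 0.84 (SE 0.26, limma adjusted p = 0.143). NDUFS5 had the highest level of the complex over the 6 libraries, although in LD its mean was below that of NDUFA2. It had 193, 196 and 124 RPKM in JH and 117, 103 and 112 RPKM in LD. Its breeds did not overlap either, but JH3 was close to LD1, and the log2 fold change was 0.59 (SE 0.26). NDUFC2 was at the bottom of all 62 genes, with 3.14, 3.81 and 2.33 RPKM in JH and 2.08, 1.46 and 1.24 RPKM in LD. These values stand for 6 to 18 reads, so its log2 fold change of 0.92 (SE 0.32) rests on few reads. NDUFAB1, the mitochondrial acyl carrier protein that also serves fatty acid synthesis, had 130, 137 and 71.9 RPKM in JH and 81.1, 65.0 and 47.1 RPKM in LD, and JH3 was below LD1. NDUFB5 and NDUFS4 gave the same picture, with log2 fold changes of 0.69 and 0.62 and JH3 below LD1 in both. NDUFA6 had the largest log2 fold change of the complex, 1.00 (SE 0.52). Its values were 3.42, 8.31 and 3.38 RPKM in JH and 1.05, 4.26 and 2.48 RPKM in LD, from 8 to 69 reads, and the breeds overlapped.

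At the other end, the mean log2 level was lower in JH for NDUFA2 (-0.07), NDUFS3 (-0.02) and NDUFA12 (-0.00). For NDUFA2, an accessory subunit of the N module, the values were 115, 145 and 83.1 RPKM in JH and 107, 136 and 109 RPKM in LD. The 95% interval of its log2 fold change ran from -0.68 to 0.54. All 3 genes turned to a log2 fold change above 0 when JH3 was left out, with 0.14 for NDUFA2, 0.15 for NDUFS3 and 0.25 for NDUFA12.

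Complex II, succinate dehydrogenase, also works in the citric acid cycle. None of its 3 tested genes had an unadjusted p below 0.05. SDHB, the iron-sulfur subunit, had 339, 264 and 180 RPKM in JH and 196, 181 and 178 RPKM in LD. JH1 and JH2 were above the LD pigs and JH3 was level with them. SDHC, a membrane anchor, had 253, 201 and 209 RPKM in JH and 193, 137 and 188 RPKM in LD. Its breeds did not overlap, and its log2 fold change was 0.36 (SE 0.25). SDHD, the other anchor, had a log2 fold change of 0.30 (SE 0.25), and LD1 with 142 RPKM lay above JH3 with 118 RPKM. The median over the complex was 0.36, but it was 0.20 without LD2, 0.24 without JH1 and 0.22 with the common sum.

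Complex III was represented by 2 small subunits. UQCRB, which takes part in ubiquinone binding, had 118, 121 and 77.8 RPKM in JH and 82.2, 81.4 and 77.9 RPKM in LD. UQCR10 had 193, 194 and 141 RPKM in JH and 177, 145 and 138 RPKM in LD. In both genes JH1 and JH2 were above every LD pig and JH3 was not. The log2 fold changes were 0.36 (SE 0.25) and 0.20 (SE 0.25).

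Complex IV, cytochrome c oxidase, had the largest median log2 fold change of the 5 complexes, 0.67 over 8 tested genes. The median was 0.57 under quantile normalization and ranged from 0.47 to 0.94 with 1 library left out. By the breed difference in mean log2 level, complex V was first with 0.63, against 0.53 for complex IV. The complex V mean includes ATP5J2 and ATP5G2, with log2 fold changes of 2.20 and 1.89 from 5 to 82 and 7 to 66 reads. The median of complex V was 0.40. Of the 8 complex IV genes, 4 had an unadjusted p below 0.05 and all JH values above all LD values, against 8.35% and 10.8% of all tested genes. COX7C, a small subunit of the membrane part, had 476, 602 and 370 RPKM in JH and 270, 280 and 253 RPKM in LD. The means were 483 ± 116 RPKM and 268 ± 13.9 RPKM (SD, n = 3 each), and the log2 fold change was 0.82 (SE 0.25, limma adjusted p = 0.140). COX5B, which binds zinc on the matrix side, had 641, 495 and 320 RPKM in JH and 294, 290 and 225 RPKM in LD. The lowest JH value thus exceeded the highest LD value by a small margin, and the log2 fold change was 0.80 (SE 0.30). COX6C differed in its pattern. It had 297, 274 and 254 RPKM in JH, close to each other, and 213, 110 and 142 RPKM in LD, and the log2 fold change was 0.88 (SE 0.28, limma adjusted p = 0.155). NDUFA4 had 388, 358 and 212 RPKM in JH and 177, 191 and 197 RPKM in LD, with a log2 fold change of 0.71 (SE 0.28). COX6B had 263, 203 and 122 RPKM in JH and 131, 124 and 107 RPKM in LD, and JH3 lay inside the LD range. COX6A1, the isoform found in liver and most tissues, had a log2 fold change of 0.34 (SE 0.32).

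The excess of complex IV over complex I was compared within each library. The mean log2 level of the complex IV genes minus that of the complex I genes was 2.30, 2.20 and 2.17 in JH1 to JH3 and 2.06, 2.01 and 2.17 in LD1 to LD3. JH3 and LD3 were equal to the second decimal. The same difference overlapped between the breeds for complexes II and V.

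Subunit 7a has a heart and muscle isoform, COX7A1, and a liver isoform, COX7A2. Both were read in every liver. COX7A1 had 128, 116 and 61.1 RPKM in JH and 80.3, 119 and 129 RPKM in LD, and its log2 fold change was -0.15 (SE 0.34). COX7A2 had 205, 181 and 107 RPKM in JH and 116, 141 and 151 RPKM in LD, and its log2 fold change was 0.22 (SE 0.29). Both genes overlapped between the breeds. The ratio of COX7A1 to COX7A2 was 0.624, 0.640 and 0.573 in JH and 0.690, 0.845 and 0.853 in LD, so all JH ratios were below all LD ratios. The exact two-sided permutation test gave p = 0.1, the smallest value that 3 pigs against 3 allow, and adjusted p = 0.2 over 6 such ratios. COX8H, the heart isoform of subunit 8, was listed at 0.

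Complex V had 12 tested genes, all with a log2 fold change above 0 and a median of 0.40. The median was 0.25 without JH2, 0.26 without JH1 and 0.62 without JH3, and 0.25 under quantile normalization or with the common sum. The F1 part, which is the catalytic head with the central stalk, was read through 3 genes. ATP5B, the catalytic beta subunit, had 449, 381 and 363 RPKM in JH and 360, 366 and 379 RPKM in LD. Its log2 fold change was 0.11 (SE 0.22), and with the common sum it was -0.04. ATP5A1, the alpha subunit that alternates with beta in the head, had 453, 375 and 324 RPKM in JH and 307, 283 and 275 RPKM in LD. Its breeds did not overlap, with a log2 fold change of 0.40 (SE 0.24). The ratio of ATP5A1 to ATP5B was 1.01, 0.985 and 0.892 in JH and 0.853, 0.774 and 0.727 in LD. All JH ratios were above all LD ratios, with p = 0.1 from the exact two-sided permutation test and adjusted p = 0.2 over the 6 ratios. ATP5E, the small epsilon subunit of the central stalk, had a log2 fold change of 0.27 (SE 0.24). The median over these 3 F1 genes was 0.27.

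Genes of the peripheral stalk and the membrane part varied more. ATP5H, subunit d of the peripheral stalk, had 349, 242 and 225 RPKM in JH and 179, 136 and 143 RPKM in LD. The breeds did not overlap, and the log2 fold change was 0.82 (SE 0.26, limma adjusted p = 0.152). ATP5F1, subunit b of the same stalk, had 135 ± 12.8 RPKM in JH and 126 ± 19.6 RPKM in LD (SD, n = 3 each). Its log2 fold change was 0.10 (SE 0.23) and turned to -0.01 under quantile normalization. ATP5J, another stalk subunit, had a log2 fold change of 0.16 (SE 0.30). The membrane subunits ATP5L and ATP5I had log2 fold changes of 0.51 and 0.47, and both overlapped between the breeds.

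The largest log2 fold changes of all 62 genes were those of ATP5J2 and ATP5G2, and both came from low values in 2 LD pigs. ATP5J2, subunit f of the membrane part, had 37.1, 23.1 and 21.2 RPKM in JH and 19.0, 5.59 and 1.64 RPKM in LD. In reads this was 82, 69 and 63 in JH and 52, 17 and 5 in LD. LD1 was near JH3, and LD2 and LD3 were far lower. The log2 fold change was 2.20 (SE 0.71, limma adjusted p = 0.155), with a 95% interval from 0.60 to 3.80. It was 1.34 without LD3 and at most 3.07, without LD1, and was not called in either fit. ATP5G2, one of several genes for the same c subunit of the proton-driven ring, had 12.9, 10.3 and 9.08 RPKM in JH and 9.21, 2.15 and 1.07 RPKM in LD. In reads this was 61, 66 and 58 in JH and 54, 14 and 7 in LD. LD1 was inside the JH range and the breeds overlapped. The log2 fold change was 1.89 (SE 0.63, limma adjusted p = 0.165). It was called only when LD1 was left out, at 2.73 and a limma adjusted p of 0.0320, and over the other alternatives its adjusted p ranged from 0.0915 to 0.375. Without LD3 the log2 fold change of ATP5G2 was 1.23.

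The other c subunit genes did not share this pattern. ATP5G3 had 383, 401 and 203 RPKM in JH and 238, 305 and 243 RPKM in LD. ATP5G1 had 98.7, 114 and 42.8 RPKM in JH and 70.8, 80.3 and 37.7 RPKM in LD. In both, JH3 was far below JH1 and JH2. ATP5G3 was the main c subunit transcript in every pig. The ratio of ATP5G2 to ATP5G3 was 0.0336, 0.0257 and 0.0447 in JH and 0.0388, 0.00704 and 0.00441 in LD, and the breeds overlapped. The ratio of ATP5G1 to ATP5G3 was 0.251 ± 0.0372 in JH and 0.239 ± 0.0745 in LD (SD, n = 3 each).

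**Figure D4:**
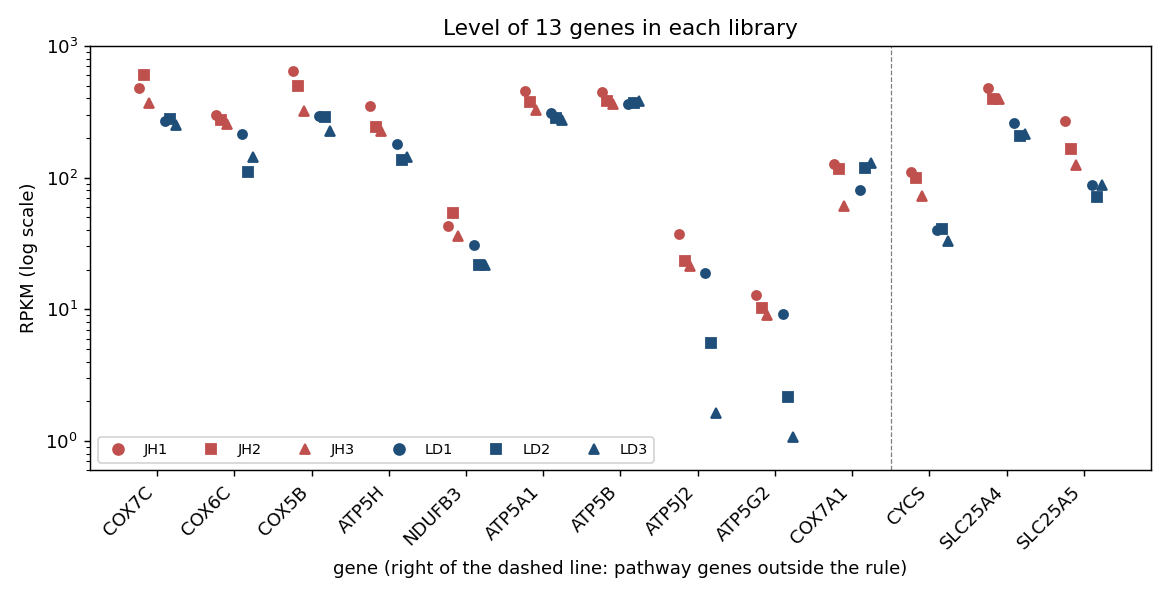
RPKM on a log scale of 10 OXPHOS genes and, right of the dashed line, 3 genes that work with the complexes, with 1 point per library (JH red, LD blue; circle, square and triangle for pigs 1, 2 and 3). COX7C, COX6C, COX5B, ATP5H, NDUFB3, ATP5A1 and ATP5J2 show no overlap between the breeds, ATP5B and COX7A1 overlap, and LD2 and LD3 are low for ATP5J2 and ATP5G2.

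Among the 6 tested genes that are not subunits, all had a log2 fold change above 0 and the median was 0.61. It was 0.38 without JH2. NDUFAF6, an assembly factor of complex I, had 7.84, 5.80 and 6.69 RPKM in JH and 2.70, 2.55 and 4.72 RPKM in LD. The JH pigs were alike here, JH3 included. The log2 fold change was 1.05 (SE 0.30), with the adjusted p of 0.114 given above. ATP5S had 14.3, 11.0 and 11.6 RPKM in JH and 9.09, 7.33 and 6.92 RPKM in LD. Its log2 fold change was 0.66 (SE 0.24). NDUFAF5 had 4.56, 7.09 and 4.29 RPKM in JH and 4.18, 3.43 and 2.65 RPKM in LD. The breeds of both genes did not overlap. NDUFAF4 and NDUFAF3 had log2 fold changes of 0.62 and 0.45. NDUFAF7 was highest in JH3 with 8.22 RPKM, against 5.87 and 5.99 RPKM in JH1 and JH2, and its log2 fold change was 0.19 (SE 0.27). NDUFAF4, NDUFAF5 and NDUFAF6 were read from 20 to 63 reads per library.

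The order of levels was wide. Mean RPKM over the 6 libraries, both breeds pooled, ran from 383 for ATP5B to 2.35 for NDUFC2, and 25 genes exceeded 100 RPKM. After ATP5B came COX5B (377), COX7C (375), COX6A1 (358) and ATP5A1 (336), and these neighbours differed by less than their SDs over the 6 libraries, 33.3 to 158 RPKM. In JH alone the means of COX5B (485), COX7C (483) and COX6A1 (405) were above that of ATP5B (398). In complex I the mean RPKM was at most 141, and the assembly factors NDUFAF4 to NDUFAF7 were below 10 RPKM. Reads per gene and library ranged from 5 to 5618 with a median of 416, and 9 genes had fewer than 100 reads in at least 1 library. Many OXPHOS genes have near-identical processed copies in mammalian genomes, and NDUFA4 is also listed as a pseudogene in the RefSeq table. How the counting split such reads is not given in the sources used here, so single levels are uncertain to that extent.

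A further 10 identifiers stand for genes of these families under other names, as matched through the RefSeq table. Of these 8 were tested, 6 had a log2 fold change above 0 and the median was 0.35. None had an unadjusted p below 0.05. NDUFV2, a core subunit of the N module listed as NUDFV2, had 65.6, 68.3 and 51.0 RPKM in JH and 47.3, 48.2 and 48.5 RPKM in LD. ATP5O, a stalk subunit, had 256, 202 and 165 RPKM in JH and 157, 143 and 139 RPKM in LD. In these 2 genes the breeds did not overlap. ATP5D, a subunit of the central stalk, had a log2 fold change of 0.63 (SE 0.32), whereas NDUFV3, an accessory subunit of the N module, had one of -0.32 (SE 0.32). The identifiers matched to ATP5C1 and ATP5SL were listed at 0.

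Of the genes that work with the complexes, cytochrome c was the one that passed the threshold. It was 1 of the 2 tested carriers and subunits with other symbols. None was called among 15 assembly factors, 6 regulators, 3 exchange carriers and 6 markers of mitochondrial mass. The share called of all tested genes was 2.39%. CYCS, which carries electrons from complex III to complex IV, had 110, 99.9 and 73.0 RPKM in JH and 39.9, 41.1 and 33.3 RPKM in LD. All JH pigs were well above all LD pigs, with means of 94.3 ± 19.1 RPKM and 38.1 ± 4.22 RPKM (SD, n = 3 each). CYCS was 2.45-fold higher in JH (log2 fold change 1.29, SE 0.25, limma adjusted p = 0.0364). With 2 pigs in one breed the call was kept only without JH3 (adjusted p = 0.0202). It was lost without JH1, JH2, LD1, LD2 or LD3, with adjusted p between 0.102 and 0.127 and log2 fold changes between 1.17 and 1.35. The call was also lost without a variance trend (adjusted p = 0.0622) and without JH3 and LD3 together (adjusted p = 0.0595), and over all alternatives its adjusted p ranged from 0.0116 to 0.127. The ratio of CYCS to COX5B was 0.172, 0.202 and 0.229 in JH and 0.136, 0.141 and 0.148 in LD, with p = 0.1 from the exact two-sided permutation test and adjusted p = 0.2 over the 6 ratios. ATPIF1, the inhibitor of the ATP synthase, had a log2 fold change of 0.40 (SE 0.28).

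The carriers that exchange ATP and phosphate with the cytosol came next. SLC25A4, an exchanger of ADP and ATP, had 482, 395 and 392 RPKM in JH and 262, 208 and 213 RPKM in LD. SLC25A5, its paralog, had 271, 164 and 125 RPKM in JH and 87.5, 70.9 and 87.8 RPKM in LD. SLC25A3, which brings in phosphate, had 274, 236 and 179 RPKM in JH and 171, 170 and 167 RPKM in LD. In these 3 genes all JH values lay above all LD values, against 10.8% of all tested genes, but none passed the threshold. The log2 fold changes were 0.90, 1.11 and 0.42, with adjusted p of 0.0919, 0.107 and 0.413 from limma. SLC25A5 passed when JH3 was left out (log2 fold change 1.37, adjusted p = 0.0437), and over the other alternatives its adjusted p ranged from 0.0655 to 0.290. SLC25A6 was listed at 0.

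Of 41 assembly factors with other symbols, 16 were in the files and 15 were tested. Their log2 fold change was above 0 in 13, with a median of 0.31, and none was called. In 3 of them (20.0%), COX17, SDHAF1 and TTC19, all JH values were above all LD values, against 10.8% of all tested genes. COX17, the copper chaperone for complex IV, had 93.5, 92.3 and 55.8 RPKM in JH and 34.0, 41.4 and 43.5 RPKM in LD. Its log2 fold change was 0.99 (SE 0.27, limma adjusted p = 0.107). It passed only without JH3 (1.23, adjusted p = 0.0361), and its adjusted p ranged from 0.0618 to 0.283 over the other alternatives. SDHAF1, an assembly factor of complex II, had 14.3, 15.7 and 7.67 RPKM in JH and 5.60, 7.67 and 4.37 RPKM in LD, and JH3 and LD2 were nearly equal. ATPAF1, a chaperone for the head of complex V, was the one gene of this list with all JH values (11.3 to 11.9 RPKM) below all LD values (13.4 to 17.7 RPKM). Its log2 fold change was -0.41 (SE 0.23). Of all tested genes, 12.5% had all JH values below all LD values. BCS1L was listed at 0.

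Of 12 regulators of nuclear OXPHOS genes, 7 were in the files and 6 were tested. Their median was 0.61, and 5 had a log2 fold change above 0. ESRRA, a nuclear receptor that acts on these genes, had 77.2, 62.8 and 45.9 RPKM in JH and 38.5, 43.7 and 34.4 RPKM in LD. TFAM, which packages and transcribes mitochondrial DNA, had 12.8, 12.3 and 14.2 RPKM in JH and 11.7, 7.27 and 7.81 RPKM in LD. Both showed no overlap, with log2 fold changes of 0.65 and 0.58. They were 2 of the 6 regulators (33.3%), against 10.8% of all tested genes with all JH values above all LD values. PPRC1, a coactivator of the same family as PPARGC1A, had a log2 fold change of 0.89 (SE 0.34, limma adjusted p = 0.219). GABPB1, a subunit of a transcription factor of respiratory genes, had one of -0.12 (SE 0.34). PPARGC1B was below the filter.

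Markers of mitochondrial mass were mixed. TOMM20, an import receptor of the outer membrane, had 39.0, 39.6 and 35.5 RPKM in JH and 25.2, 21.3 and 19.4 RPKM in LD. TIMM23, a channel of the inner membrane, had 55.6, 48.4 and 33.8 RPKM in JH and 32.3, 19.8 and 24.9 RPKM in LD. The breeds did not overlap in either gene, at log2 fold changes of 0.80 and 0.84 and adjusted p of 0.113 and 0.174 from limma. VDAC1, the main pore of the outer membrane, had a log2 fold change of 0.29 (SE 0.25), and HSPD1, a matrix chaperone, one of 0.36 (SE 0.24). The breeds overlapped in VDAC1 and did not overlap in HSPD1. CS, citrate synthase, had 12.0, 13.2 and 19.7 RPKM in JH and 12.7, 20.9 and 16.7 RPKM in LD, with a log2 fold change of -0.17 (SE 0.29). VDAC2 was listed at 0.

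The lean towards JH was also seen in other gene lists. For 55 tested cytosolic ribosomal proteins, 53 had a log2 fold change above 0 and the median was 0.35. For 56 tested mitochondrial ribosomal proteins, 54 had a log2 fold change above 0 and the median was 0.41. Of these 56, 1 gene was called, against 2.39% of all tested genes. The breeds did not overlap, with JH above LD, in 10 cytosolic (18.2%) and 13 mitochondrial (23.2%) ribosomal protein genes, next to the 22.6% of the OXPHOS genes and the 10.8% of all tested genes. The 13 genes of the citric acid cycle, also mitochondrial, had a median of 0.17. Of these 10 had a log2 fold change above 0 and none was called. All JH values were above all LD values in 3 of the 13 (23.1%), a share like that of the OXPHOS genes. MDH2, malate dehydrogenase, had 289, 271 and 242 RPKM in JH and 189, 190 and 154 RPKM in LD, so that every JH value lay above every LD value. The differences between the medians of these lists were not tested.

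**Figure D5:**
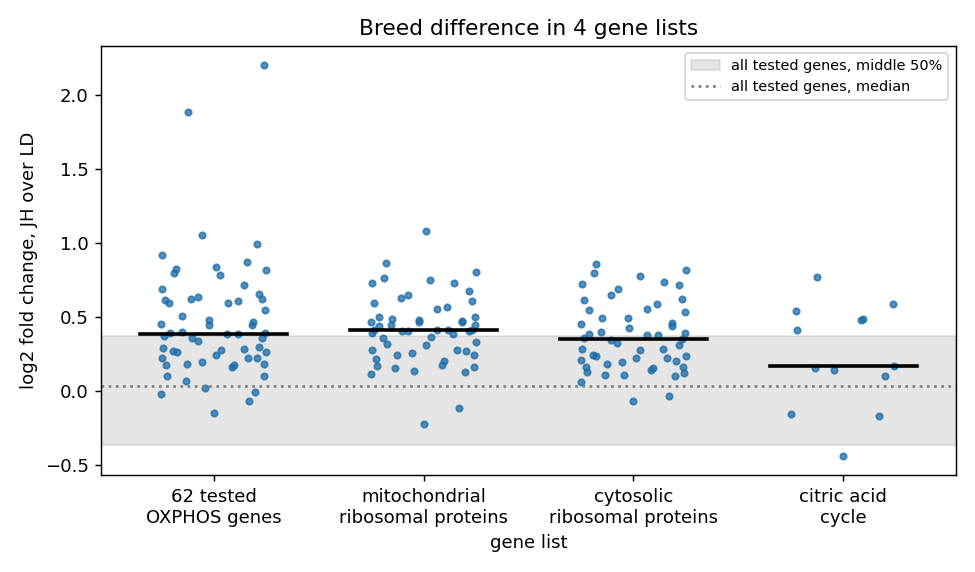
Log2 fold change of JH over LD (y axis) for single genes (points) of 4 lists, with the median of each list as a black bar. The dotted line and grey band mark the median (0.04) and the middle 50% (-0.36 to 0.37) of all tested genes. The medians of the OXPHOS genes (0.39) and of both ribosomal protein lists (0.41 and 0.35) lie near the upper edge of the band, and that of the citric acid cycle (0.17) lies inside it.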

How the data were processed

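Liver RNA of 3 JH and 3 LD pigs was measured by RNA-seq, with 1 library of 50 bp single reads per pig. Per the paper's methods, the authors removed adaptors and low quality reads, aligned to Sus scrofa 10.2 with Tophat (TopHat2 2.0.13 in the submitters' processing notes), used gfold to count the reads of each gene, and deposited an RPKM value per gene and library. The RPKM are scaled to the counted reads of each library, so abundant RNA such as RN18S lowers all other values. The small RNA libraries were not used. The values of 1 tested OXPHOS gene are not reported here singly, but the gene is part of every count and median.

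Groups were taken from the sample labels. The OXPHOS genes, all gene lists and the genes named in the text were chosen with earlier results of these data known. Genes are named by complex: the largest changes in each direction, the highest and lowest levels, the core subunits, the isoform pairs, the genes listed at 0 and those whose breeds did not overlap, with pathway genes where a result turned on them. The modules of complex I were written from general knowledge.

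The breeds were compared with limma 3.58.1 (R 4.3.3), using lmFit and a variance trend in eBayes. Values were taken as log2(RPKM + 0.1), and 12993 genes that reached 0.5 RPKM in 3 or more libraries were tested. The pseudocount understates changes of low genes. The limma p-values were adjusted by the Benjamini-Hochberg method over all tested genes, and the permutation p-values of the ratios over the 6 ratios. The limma p-values rest on the spread between these pigs, moderated by the spread of all tested genes. Exact permutation tests were two-sided. The smallest p they can give with 3 pigs per breed is 0.1. No set test was run. Read numbers and gene lengths were recovered from the RPKM values by searching for the totals that make all values of a gene whole reads, which succeeded for 18108 of 19614 genes above 0 and for all 62 tested OXPHOS genes. Several reads may stem from 1 molecule, and a read number gives the counting error alone. The limma fit and the recovery were tested on simulated data. Identifiers were matched to other names through the RefSeq gene table, whose build differs from that of the files, and therefore coordinates are left out.

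Alternative settings comprised other pseudocounts, filters and scalings, the replicate number as a block, no variance trend, limma's voom on recovered reads, subunits only, and each library left out. The fit without JH3 and LD3 was added after the values were seen. Tables were written with pandas 2.3.3 and numpy 2.4.6, and plots with matplotlib 3.10.9, under Python 3.11.15.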

Additional observations from a re-analysis of the deposited data

How the results depend on the processing

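Of the counts and medians over the OXPHOS genes, 197 recomputed values were within 1.5 times the reported count, or within the SD between pigs of the reported median, and 17 were not. These limits are wide. Inside them, quantile normalization lowered the median of all OXPHOS genes to 0.23 and that of complex I to 0.18, and the 15 genes at an unadjusted p below 0.05 became 22 after median scaling and 11 without a variance trend (11.0% and 7.5% of all tested genes with the higher mean in JH). No OXPHOS gene was called under other pseudocounts, filters, scalings, voom or the replicate block. The lowest adjusted p among the OXPHOS genes was 0.0690 after median scaling and 0.160 without a filter. Of all tested genes, between 1.02% (no filter) and 3.32% (common sum) had an adjusted p below 0.05 in these fits. In the fits that left out 1 library, the genes called numbered between 0 and 1, at either threshold, and ATP5G2 without LD1 was the 1 gene. The share of all tested genes at an adjusted p below 0.05 was between 0.5% (without LD1) and 3.16% (without JH3). The genes at an unadjusted p below 0.05 with the higher mean in JH ranged from 7 to 36. Those with all JH values above all LD values ranged from 14 to 53. The median of the genes that are not subunits ranged from 0.38 to 0.72, and that of all OXPHOS genes from 0.26 to 0.63. Without JH3 and LD3 the first of these counts was 25 (40.3%, against 9.41% of all tested genes) and the second was 54 (87.1%, against 29.1%). Scaling moved the number of genes without overlap to 27 (common median), 22 (quantile) and 22 (common sum), and both quantile and common sum scaling gave 1 gene with all JH values below all LD values. The OXPHOS median exceeded that of all tested genes by 0.35 as deposited, by 0.35 with the common sum, where the median of all tested genes was -0.10, and by 0.21 under quantile normalization. The cause of these moves was not tested. By construction, the other filters, the replicate block and the fit without a variance trend left every OXPHOS median as reported.

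Single genes near 0 changed sign in 35 recomputed values, and 1366 others kept their direction and their side of the threshold. By construction, the other filters, the replicate block and the fit without a variance trend left every log2 fold change as it was. Their part of the 1366 could therefore not change direction. A further 3 newly passed it (ATP5G2 without LD1, SLC25A5 and COX17 without JH3), and 7, all for CYCS, fell short of it. Under quantile normalization the log2 fold change was -0.0087 for ATP5F1, -0.144 for NDUFA1, -0.0865 for NDUFA13 and 0.0094 for GABPB1. Under common sum scaling it was -0.0375 for ATP5B, -0.0394 for ATP5F1, -0.122 for NDUFA1 and -0.0755 for NDUFA13. With 1 library left out, or JH3 and LD3 left out, the ranges that crossed 0 were -0.0233 to 0.498 for ATP5J, -0.0056 to 0.217 for ATP5F1, -0.147 to 0.281 for NDUFA1, -0.0441 to 0.455 for NDUFA10, -0.0145 to 0.479 for NDUFA11, -0.136 to 0.266 for NDUFA12, -0.0819 to 0.357 for NDUFA13, -0.260 to 0.143 for NDUFA2, -0.0809 to 0.358 for NDUFAF7, -0.117 to 0.147 for NDUFS3, -0.0489 to 0.483 for NDUFS6, -0.359 to 0.315 for COX7A1, -0.378 to 0.0066 for CS and -0.362 to 0.127 for GABPB1.

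Both breeds use the replicate numbers 1 to 3, and the labels do not say whether the numbers pair the pigs. Same-numbered libraries deviated from the means of their breeds with correlations over genes of -0.02, 0.05 and 0.18. JH1 and JH2 each correlated more with another LD library, whereas JH3 with LD3 had the highest value of any pair. Deviations sum to 0 within each breed, so these correlations cannot settle whether the pigs were paired. With the replicate number as a block, 21 OXPHOS genes (33.9%) had an unadjusted p below 0.05 in place of 15, all with the higher mean in JH. Of all tested genes, 12.0% did with the higher mean in JH in place of 8.35%, and 22.8% in either direction in place of 17.9%. The lowest adjusted p among the OXPHOS genes in this fit was 0.0736.

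With 3 pigs per breed, the median 95% interval spanned 0.64 on either side of the log2 fold change, and low genes such as NDUFC2, ATP5J2 and ATP5G2 rested on fewer than 20 reads in some libraries.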
